A study of Mus musculus with 8 samples.

Results

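Transcripts of 10 glutathione S-transferase genes were followed in mouse cumulus oocyte complexes with and without a functional progesterone receptor. The members were the 7 mu-class genes Gstm1 to Gstm7, with Gsta4 of the alpha class, Gstt1 of the theta class and Gsto1 of the omega class for contrast. They were chosen by gene symbol, as 10 of the 19938 genes with a probe set of a single symbol, and have 11 such probe sets, since Gstm3 has 2. For a gene with more than 1 probe set, the main one was selected on its mean signal over the 8 arrays, the highest being taken. That mean was the measured value the rule used, and the family was also put together with earlier results of this comparison known, so the genotype differences below describe the members and are not independent evidence.

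The study compared mice with lacZ knocked into both copies of Pgr, the progesterone receptor gene (PRKO), which disrupts both receptor isoforms, with mice heterozygous for the same insertion (PR+/-). The control animals therefore also carried 1 disrupted Pgr allele. Females aged 21 to 23 days received 5 IU of equine chorionic gonadotropin and, 44 to 47 h later, 5 IU of human chorionic gonadotropin (hCG), and complexes were taken from antral follicles 8 h after hCG. Each genotype had 4 arrays, each with RNA pooled from 3 animals, for 12 animals per genotype. A complex is the oocyte with the cumulus granulosa cells around it, and the insertion is present in all cells of the animal.

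Glutathione S-transferases join the tripeptide glutathione to electrophilic compounds, such as the reactive aldehydes formed from oxidised lipids, and the conjugates are then exported and broken down. The cytosolic enzymes act as dimers and are sorted by sequence into classes, and the mu-class genes lie beside each other in a cluster. Glutathione itself is made from cysteine, glutamate and glycine, and in the ovulatory follicle cumulus cells supply the oocyte with cysteine and glutathione.

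Values are log2 signals on whole-transcript arrays, 1 per probe set and array. Levels of different probe sets cannot be set against each other, and the differences given are between genotypes within a probe set. The median signal per array lay between 5.35 and 5.46. Pairs of arrays of the same genotype had a Pearson correlation across probe sets of 0.988 to 0.990, and pairs of different genotype one of 0.981 to 0.988. Pgr, the gene with the insertion, had mean log2 signals of 6.78 ± 0.57 (SD, n = 4) in PR+/- arrays and 5.69 ± 0.40 in PRKO arrays, a log2 difference of -1.09 ± 0.26 (SE). Its adjusted p was 0.0452 in limma, the arrays of the genotypes overlapped, and the exact permutation p (two-sided, 70 arrangements) was 0.0571, where the smallest possible was 0.0286. Without PR+/- replicate 2, 3 or 4 or PRKO replicate 1, 2 or 3 the limma adjusted p rose to between 0.0660 and 0.130. Which part of the Pgr transcript it reads was not analysed here, so it is a weak check of the labels. Defining oocyte markers (Zp3, Gdf9) and cumulus markers (Has2, Ptx3, Tnfaip6) had mean signals of 6.55 to 11.12 in both genotypes. The theca marker Cyp17a1 was at 6.49 in PR+/- and 6.40 in PRKO. The stroma marker Col1a1 was at 6.79 and 6.90, and the endothelial marker Pecam1 at 4.78 and 4.85. Because levels of different probe sets cannot be compared, these signals do not measure the purity of the complexes.

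Of the 10 members 4 fell in PRKO complexes, Gstm1, Gstm2, Gstm3 by its main probe set, and Gsta4. None rose in limma, and 0 members with a positive difference had an unadjusted p under 0.05. An unadjusted p under 0.05 was found for 16.0% of all genes, against which the counts at that level below are to be read. The 6 others did not pass an adjusted p of 0.05 (limma, Benjamini-Hochberg over 21789 probe sets). By that rule 2.92% of all genes passed in either direction, and 1.48% were lower in PRKO. Counted by its other probe set, Gstm3 did not pass, which left 3. Its main probe set was the brighter of the 2 in PR+/- arrays alone, so the choice of that probe set is tied to the fall. The log2 difference was negative for 8 of the 10 members, as for 48.7% of all genes, and its median was -0.49, against 0.004 over all genes. For the 4 members that fell, all PRKO arrays lay below all PR+/- arrays, as they did for 4.12% of all genes, while 10.2% were without overlap in either direction. As complexes were measured in bulk, fewer cells of a type and less RNA per cell cannot be told apart.

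**Figure D1:**
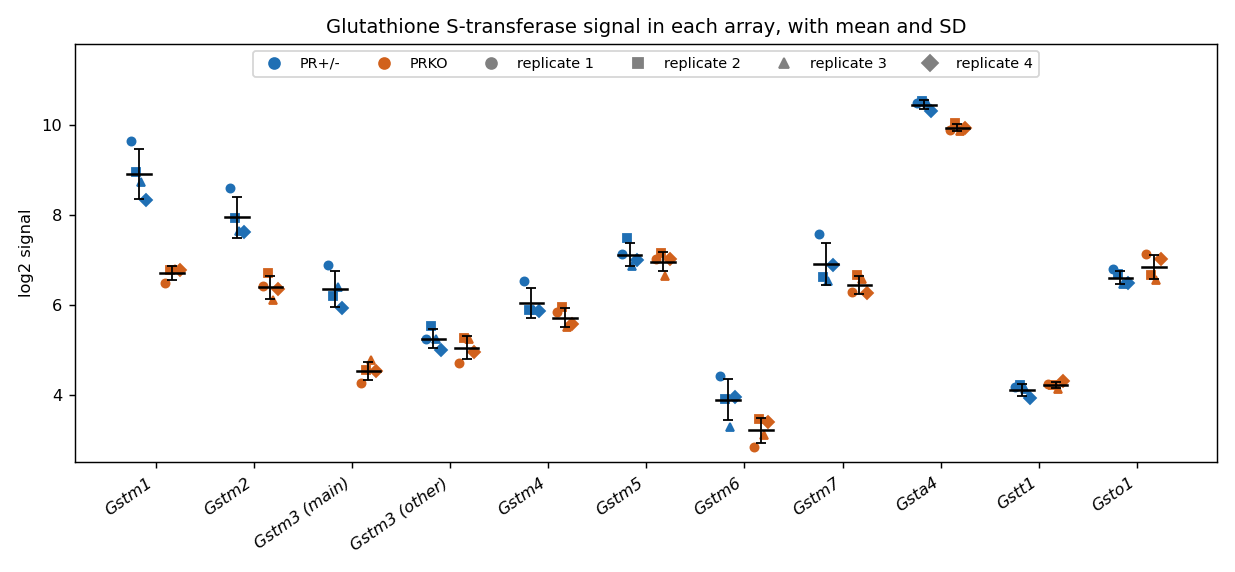
Log2 signal of the 11 probe sets of the 10 members in the 4 PR+/- and 4 PRKO arrays, with a symbol for each replicate number, the mean as a horizontal bar and the SD as a vertical one. The genotypes are separate for Gstm1, Gstm2, the main Gstm3 probe set and Gsta4 and overlap for the other 7 probe sets.

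Gstm1, the mu-class enzyme best known from liver and many other mouse tissues, had the largest difference of the family. Its log2 signals in PR+/- replicates 1 to 4 were 9.64, 8.95, 8.74 and 8.33, and in PRKO replicates 1 to 4 they were 6.48, 6.77, 6.80 and 6.77. The lowest PR+/- array was 1.53 log2 units above the highest PRKO array, and the PR+/- arrays spread more widely (SD 0.55) than the PRKO arrays (SD 0.15). The log2 difference was -2.21 ± 0.21 (SE, n = 4 against 4 arrays), 4.63-fold lower in PRKO with 95% limits of 3.36 to 6.38, and the limma adjusted p was 0.000199. Of all 19938 genes it ranked 6 from the most negative.

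Gstm2 encodes a second mu-class enzyme and is the neighbour of Gstm1 in the cluster. It read 8.59, 7.93, 7.64 and 7.63 in PR+/- replicates 1 to 4 and 6.41, 6.72, 6.10 and 6.36 in PRKO replicates 1 to 4 (log2 signal). The groups were 0.91 log2 units apart at their nearest arrays, and PR+/- replicate 1 was again the highest. The log2 difference was -1.55 ± 0.20 (SE), 2.93-fold lower with 95% limits of 2.18 to 3.93, and the limma adjusted p was 0.00125. Without moderation of the variances it was 0.0860.

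Gstm3 encodes another mu-class enzyme, and its 2 probe sets disagreed. The main probe set, with the higher mean signal (5.44 against 5.15 log2 units), read 6.88, 6.19, 6.39 and 5.93 in PR+/- replicates 1 to 4 and 4.27, 4.56, 4.77 and 4.53 in PRKO replicates 1 to 4. It was the brighter of the 2 in every PR+/- array (main minus other 0.65 to 1.64 log2 units). In every PRKO array it was the dimmer (-0.72 to -0.43), so it became the main one through its PR+/- signals. The genotype difference of the main probe set is thus tied to that choice. Its log2 difference was -1.81 ± 0.17 (SE), 3.51-fold lower with 95% limits of 2.71 to 4.56 and a limma adjusted p of 0.000194. The other probe set read 5.24, 5.53, 5.23 and 5.00 in PR+/- and 4.72, 5.27, 5.25 and 4.96 in PRKO, and its arrays overlapped. Its log2 difference was -0.20 ± 0.14 (SE), with 95% limits of -0.50 to 0.10 and a limma adjusted p of 0.532. Both carry the same gene symbol and transcripts in the platform annotation. The number of the other probe set (10501218) falls between those of Gstm6 (10501208) and Gstm2 (10501222), its neighbours in the cluster, while that of the main one (10362511) lies outside the numbers of all other probe sets of the cluster and its flanks. Where the probes of each match the genome, and whether the main one reads another copy of the sequence, was not tested. Whether probes of one mu-class gene also read another was not tested, since probe sequences were not used here. The lower call for Gstm3 therefore rests on 1 of 2 probe sets, and the mean of both had a log2 difference of -1.01 (limma adjusted p = 0.00171).

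The remaining 4 mu-class genes all had lower means in PRKO, and none passed the limma test. Gstm6 read 4.41, 3.91, 3.29 and 3.95 in PR+/- and 2.84, 3.46, 3.12 and 3.41 in PRKO, so PR+/- replicate 3 lay inside the PRKO range. Its log2 difference was -0.68 ± 0.20 (SE), with 95% limits of -1.13 to -0.24 and an adjusted p of 0.110. Without PR+/- replicate 3 the difference was -0.88 with an adjusted p of 0.0266. All 4 PRKO signals of Gstm6 were below the lower quartile of every array (3.92 to 4.00). So were those of PR+/- replicates 2 and 3, and PR+/- replicate 4 lay within that quartile range. How far the signals of either genotype stand above background is unknown.

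Gstm7 spanned 6.54 to 7.57 in PR+/- and 6.27 to 6.65 in PRKO (log2 signal), a difference of -0.46 ± 0.19 (SE; adjusted p = 0.266) that was -0.24 without PR+/- replicate 1. Gstm4 spanned 5.85 to 6.52 and 5.51 to 5.94, a difference of -0.32 ± 0.15 (SE; adjusted p = 0.328) that was -0.16 without PR+/- replicate 1. Both genes thus had their highest signal in that array, as Gstm1, Gstm2, the main Gstm3 probe set and Gstm6 did. Gstm5, a mu-class gene known for expression in brain and testis, spanned 6.87 to 7.48 in PR+/- and 6.65 to 7.15 in PRKO. Its log2 difference of -0.16 ± 0.14 (SE) had 95% limits of -0.46 to 0.14 and an adjusted p of 0.639, and it was -0.04 without PR+/- replicate 2 and -0.05 without PRKO replicate 3.

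Outside the mu class 1 of 3 members fell. Gsta4, the alpha-class enzyme with high activity towards the lipid aldehyde 4-hydroxynonenal, read 10.49, 10.53, 10.48 and 10.30 in PR+/- and 9.89, 10.05, 9.87 and 9.94 in PRKO replicates 1 to 4. The arrays of each genotype lay close together (SD 0.10 and 0.08), with a gap of 0.25 log2 units between the genotypes. The log2 difference was -0.51 ± 0.08 (SE), 1.43-fold lower with 95% limits of 1.26 to 1.61, and the limma adjusted p was 0.00559. Gstt1, a theta-class enzyme that acts on small halogenated compounds, was at 4.12 ± 0.13 in PR+/- and 4.22 ± 0.07 in PRKO (mean log2 ± SD, n = 4). Both means lay near the lower quartile of the arrays (3.92 to 4.00), and how far they stand above background is unknown. Gsto1, an omega-class enzyme with thioltransferase activity, was at 6.61 ± 0.15 and 6.84 ± 0.28. Their log2 differences of 0.10 (95% limits -0.09 to 0.29) and 0.23 (-0.05 to 0.52) did not pass, with limma adjusted p of 0.640 and 0.426. Gstt1 went to 0.04 without PR+/- replicate 4, and Gsto1 to 0.14 without PRKO replicate 1.

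Transferase genes of other classes and families were taken as a list of 18, of which 14 had a probe set with a single symbol. In limma 0 of the 14 passed and 1 had an unadjusted p under 0.05, and their log2 differences ran from -0.37 to 0.21 with a median of 0.04. Gsto2, the other omega-class gene, had the largest at -0.37 ± 0.14 (SE; adjusted p = 0.214). Gstt3 followed at 0.21 ± 0.10 and Mgst2, a microsomal transferase, at 0.17 ± 0.14 (adjusted p = 0.352 and 0.615). Of the 14 genes 4 had a probe set at or above the median signal of those tested (5.72 log2 units). How far the others stand above background is unknown, so the lack of a call does not show that their transcripts were unchanged. Gsta1 and Gsta2 share 4 probe sets with 2 predicted genes, and Gstp1 shares 2 with Gstp2. When all probe sets were tested, those 6 had log2 differences between -0.05 and 0.05.

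**Figure D2:**
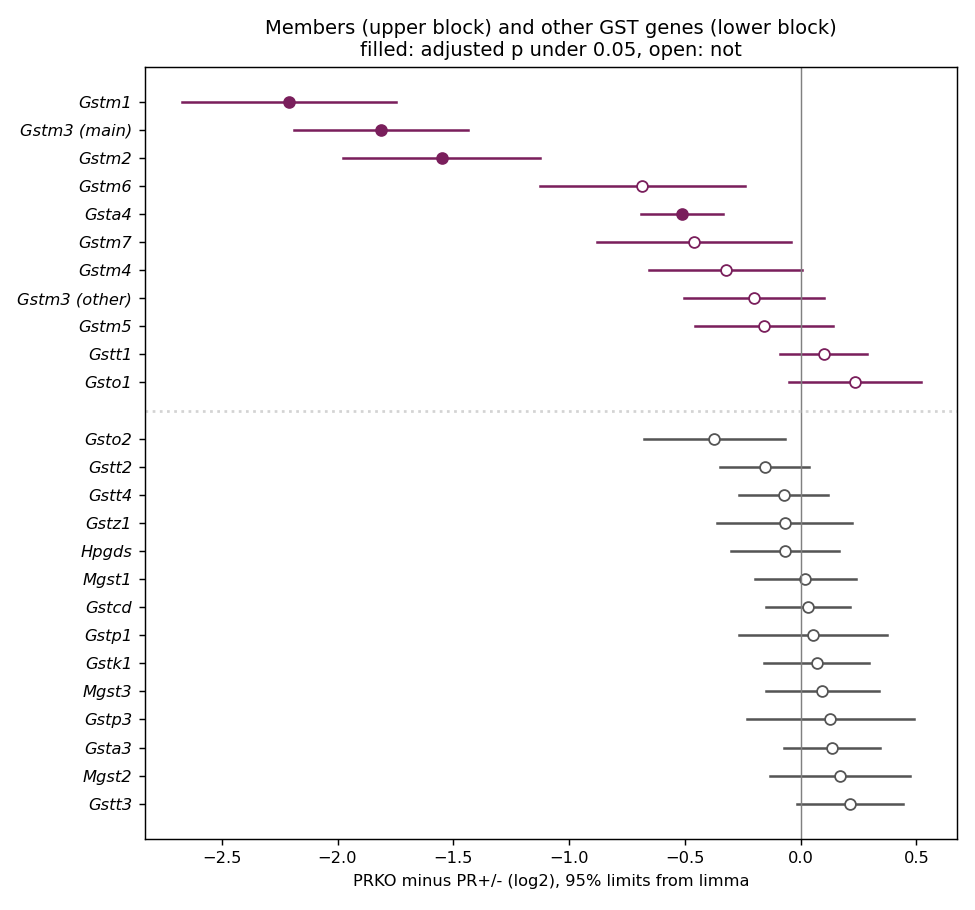
PRKO minus PR+/- log2 difference with 95% limits for the 11 probe sets of the members (upper block) and 14 other transferase genes (lower block), filled where the adjusted p was under 0.05. The 4 filled points are Gstm1, the main Gstm3 probe set, Gstm2 and Gsta4, and the lower block lies between -0.37 and 0.21.

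The 7 mu-class genes lie on chromosome 3 in the order Gstm5, Gstm7, Gstm6, Gstm3, Gstm2, Gstm1 and Gstm4 (RefSeq gene order of assembly GRCm38.p6). Along that order the log2 differences were -0.16, -0.46, -0.68, -1.81, -1.55, -2.21 and -0.32. By gene order the 3 that fell are adjacent, although for Gstm3 this holds for the main probe set alone. The number of that probe set lies outside those of the cluster, and where it matches the genome was not tested. By the Gstm3 probe set numbered within the cluster (-0.20, limma adjusted p = 0.532), only Gstm2 and Gstm1 fell side by side. Of the 6 nearest protein-coding genes with a tested probe set on each side 0 of 12 passed in limma, and 2 had an unadjusted p under 0.05. Over all genes these shares were 2.92% and 16.0%, so counts from 12 genes do not set the flanks apart from other genes. Of the 12, 5 had a probe set at or above the median signal. The log2 differences of the 12 ran from -0.24 for Ubl4b to 0.30 for Ampd2, an AMP deaminase gene (adjusted p = 0.0983), with a median of 0.07. Cyb561d1, the other gene with an unadjusted p under 0.05, was at 0.22 (adjusted p = 0.280). Gsta4 lies on chromosome 9, as does Pgr, with 719 protein-coding genes between them in that gene order.

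**Figure D3:**
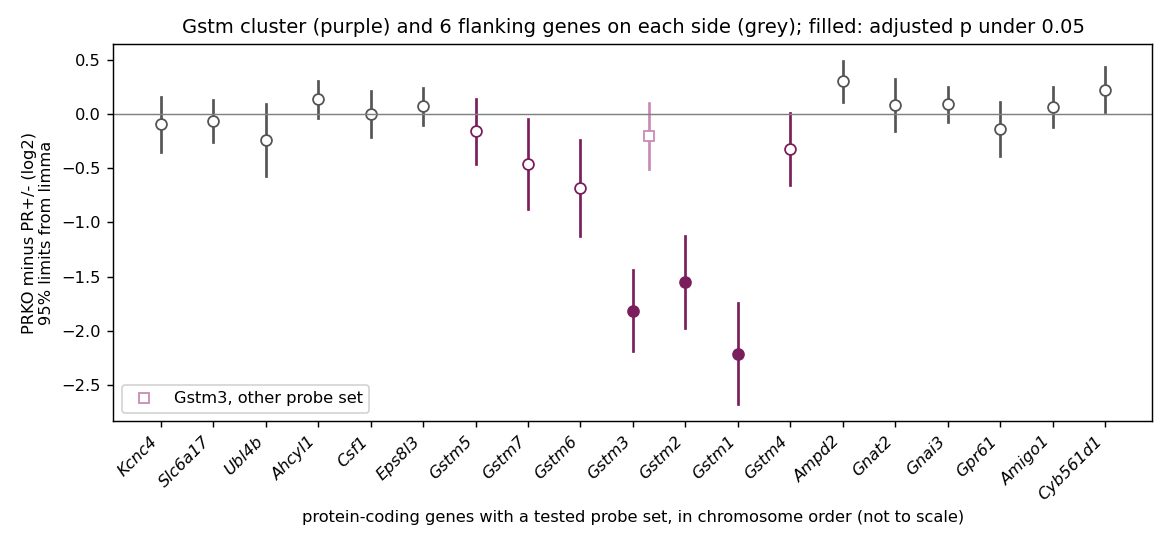
PRKO minus PR+/- log2 difference with 95% limits for the 7 Gstm genes (purple) and 6 flanking genes on each side (grey), in chromosome order and not to scale, filled where the adjusted p was under 0.05. Gstm3 by its main probe set, Gstm2 and Gstm1 lie at -1.81, -1.55 and -2.21, the other Gstm3 probe set (square) at -0.20, and the flanking genes between -0.24 and 0.30. Both Gstm3 probe sets are placed by gene symbol, and where the main one matches the genome was not tested.

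Because members of the cluster differed in size of change, their promoters were compared. RefSeq promoter windows of 300 bases (250 before and 50 after a gene's start, GRCm38.p6) matched 9 of the 10 members, in 14 windows, and Gsta4 was not matched. The windows at the annotated start are shown for Gstm1 (chr3:108017924-108018223, minus strand), Gstm2 (chr3:107986371-107986670, minus strand) and Gstm3 (chr3:107969125-107969424, minus strand), which fell, and for Gstm5 (chr3:107895604-107895903, plus strand), the mu-class gene with the smallest difference. The fall of Gstm3 holds for its main probe set alone. The windows run 5′ to 3′, with matches to the motifs named below in capitals.
Gstm1: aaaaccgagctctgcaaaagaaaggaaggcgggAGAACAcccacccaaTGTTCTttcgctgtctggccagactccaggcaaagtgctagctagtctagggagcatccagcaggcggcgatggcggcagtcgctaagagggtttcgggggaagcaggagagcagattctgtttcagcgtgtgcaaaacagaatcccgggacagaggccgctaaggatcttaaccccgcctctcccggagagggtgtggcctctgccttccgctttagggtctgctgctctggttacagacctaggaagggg
Gstm2: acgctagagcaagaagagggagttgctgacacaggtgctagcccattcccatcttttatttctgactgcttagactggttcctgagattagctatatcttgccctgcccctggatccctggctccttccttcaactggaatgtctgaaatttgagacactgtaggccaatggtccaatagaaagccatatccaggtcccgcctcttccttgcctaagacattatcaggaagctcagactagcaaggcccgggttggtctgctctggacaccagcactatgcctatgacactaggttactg
Gstm3: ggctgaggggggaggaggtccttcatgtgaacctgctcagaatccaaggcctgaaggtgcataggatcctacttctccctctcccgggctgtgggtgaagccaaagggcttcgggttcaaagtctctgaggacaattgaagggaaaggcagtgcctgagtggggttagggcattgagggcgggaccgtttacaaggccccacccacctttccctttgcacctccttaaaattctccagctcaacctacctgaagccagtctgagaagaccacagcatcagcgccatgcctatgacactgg
Gstm5: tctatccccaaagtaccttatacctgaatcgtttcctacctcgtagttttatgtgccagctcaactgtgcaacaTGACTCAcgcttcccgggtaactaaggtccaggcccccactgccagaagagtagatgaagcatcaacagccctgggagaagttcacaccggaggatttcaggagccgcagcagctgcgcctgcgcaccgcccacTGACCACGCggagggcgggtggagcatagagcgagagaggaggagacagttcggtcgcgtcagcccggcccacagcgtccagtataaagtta

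Each window was searched on both strands for 4 motifs. The progesterone receptor half-site TGTTCT occurred 2 times in the Gstm1 window, in opposite orientations and starting at positions -217 and -202 from the gene's start, and 0 times in the shown windows of Gstm2, Gstm3 and Gstm5. Of all 32851 mouse promoter windows 19.0% held at least 1 such half-site and 2.54% at least 2. The full progesterone response element, a pair of facing half-sites in a looser spelling, matched 0 of the 14 windows and 0.475% of all windows. The core of the antioxidant response element, TGACNNNGC, which the stress factor NRF2 binds, matched the Gstm5 window and 1 of the windows of Gstm7, against 12.4% of all windows. The AP-1 site TGANTCA matched the Gstm5 window and 7.81% of all windows. The antioxidant core and the AP-1 site both begin with TGA, and their matches in Gstm5 start at positions -42 and -176. Of the 14 windows 2 of Gstm6 also held half-sites, neither of them at the annotated start. The first held 2, as many as Gstm1, also in opposite orientations and starting at positions -217 and 16, and the other held 1. Gstm6 did not pass in limma (adjusted p = 0.110). A second, overlapping window of Gstm1 held 0. Pairs of mu-class windows, 1 per gene, had 150 to 168 of 300 bases identical after global alignment with gaps, and Gstm1 and Gstm2 had 158. No windows of unrelated genes were aligned, so whether these counts exceed those of unrelated windows was not tested. Matches of letters describe these windows and say nothing about binding.

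Over the 8 arrays the probe sets whose profile lay nearest to that of Gstm1 were found among the 738 genes whose signal spanned at least 1 log2 unit, by the root mean square distance after centring each probe set. Scara5, a ferritin receptor, was nearest at 0.246 log2 units, and Gstm3 by its main probe set was next at 0.250. Tbc1d8, a gene of the Rab GTPase activator family, followed at 0.258, then Tmem100, a transmembrane protein gene, at 0.264 and Epas1, which encodes hypoxia-inducible factor 2 alpha, at 0.268. Gstm2 ranked 16 at 0.397 and Gstm6 ranked 142 at 0.822. The 5 nearest profiles and Gstm2 were also lower in PRKO, and the distance includes that difference.

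**Figure D4:**
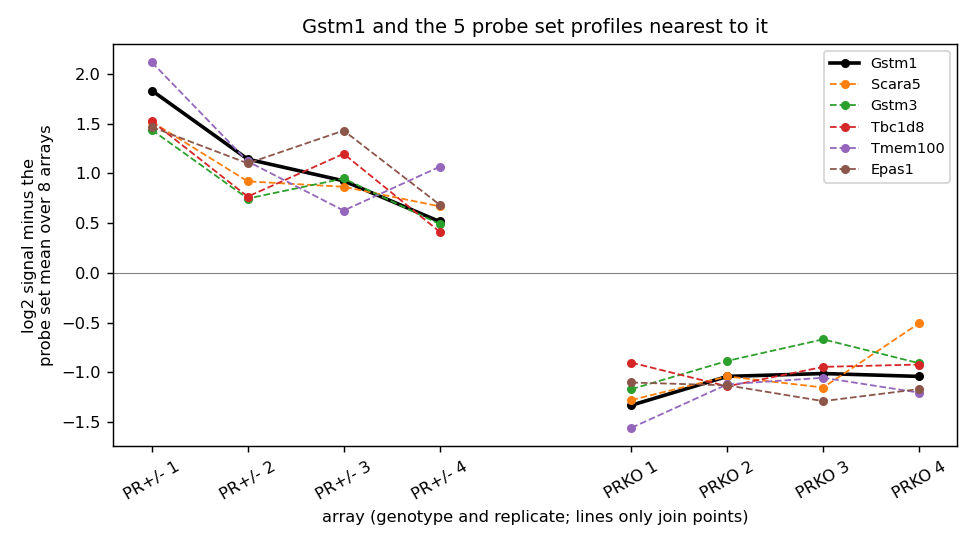
Log2 signal minus the probe set's mean over 8 arrays for Gstm1 (black line) and the 5 nearest profiles (dashed), by array. In all 6 profiles the PR+/- arrays lie above the PRKO arrays and PR+/- replicate 1 is the highest array.

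Genes that make and recycle glutathione, the shared substrate of the family, passed in both directions. Of 19 measured genes 2 fell, 1 rose and 16 did not pass, with a median log2 difference of 0.10. Slc7a11, the transporter that brings in cystine for glutathione synthesis, spanned 10.07 to 10.84 in PR+/- and 6.58 to 8.08 in PRKO. Its log2 difference was -2.99 ± 0.27 (SE; limma adjusted p = 0.000154). Gclc, the catalytic subunit of the rate-limiting ligase of that synthesis, spanned 9.64 to 10.06 in PR+/- and 8.52 to 9.09 in PRKO. It was lower by 2.14-fold (log2 difference -1.10 ± 0.13, SE; limma adjusted p = 0.000633, and 0.0571 without moderation). The groups did not overlap for either gene.

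Oplah, the 5-oxoprolinase that returns glutamate to the pathway, rose by 0.51 ± 0.08 on the log2 scale (limma adjusted p = 0.00389). Gss, which completes glutathione (0.30 ± 0.08), Chac1, which degrades it (0.27 ± 0.12), and Pgd, which regenerates NADPH (0.27 ± 0.07), did not pass, with limma adjusted p of 0.0854, 0.316 and 0.0782. Gclc also lies on chromosome 9 near Gsta4, with 4 protein-coding genes between them, and of the 3 with a tested probe set 0 passed in limma and 0 had an unadjusted p under 0.05 (log2 differences -0.11 to 0.12).

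The list for peroxide and disulfide reduction holds glutathione peroxidases, peroxiredoxins, glutaredoxins and thioredoxins with catalase and the superoxide dismutases. In limma 0 of its 25 measured genes passed, 6 had an unadjusted p under 0.05, and the median log2 difference was 0.08. Gpx3, the secreted glutathione peroxidase, was at -0.48 ± 0.18 (SE; adjusted p = 0.201), and without PRKO replicate 1 at -0.69 (0.0135). Gpx8 was at 0.32 ± 0.14 and Sod2, the mitochondrial superoxide dismutase, at 0.30 ± 0.08, with limma adjusted p of 0.285 and 0.0645. When only probe sets of at least median signal were fitted, 1 gene of this list, Sod2, passed.

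NRF2, encoded by Nfe2l2, is the factor that switches on many transferase and glutathione genes under oxidative stress. The list taken here for NRF2 targets holds no glutathione S-transferase, and it counts Nfe2l2 itself, Keap1 and Mafg among its genes. Its median therefore does not cover the transferases. Of its 26 measured genes 2 fell and 2 rose, and 22 did not pass, with a median log2 difference of 0.12. Those that fell were Slc7a11 and Gclc again, which stand in both lists. Ftl1, the ferritin light chain, rose by 0.45 ± 0.11 and Ugdh, which makes UDP-glucuronate, by 0.43 ± 0.10 (log2, SE; limma adjusted p = 0.0488 and 0.0477). Neither call held without certain single arrays: it ended without PR+/- replicate 1, 3 or 4 or PRKO replicate 2, 3 or 4 for both, and without PRKO replicate 1 for Ugdh, with adjusted p up to 0.145. Cbr3, a carbonyl reductase (0.71 ± 0.20), Txnrd1, a thioredoxin reductase (0.29 ± 0.09), and Fth1, the ferritin heavy chain (0.28 ± 0.09), did not pass, with limma adjusted p of 0.0867, 0.114 and 0.154.

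Of 23 genes that remove aldehydes and quinones by other routes 1 rose and 0 fell, with a median log2 difference of 0.11. The gene that rose was Nqo2, a quinone reductase (0.48 ± 0.10, SE; limma adjusted p = 0.0308), and its call ended without PR+/- replicate 2, 3 or 4 or PRKO replicate 1, 2 or 3, at adjusted p up to 0.0936. Cbr3, Aldh1a1, which oxidises retinal (0.48 ± 0.25), and Aldh9a1 (0.28 ± 0.08) did not pass (adjusted p = 0.0867, 0.379 and 0.112). Aldh1a1 ran from 0.29 without PR+/- replicate 1 to 0.72 without PRKO replicate 1, and passed with the replicate block (adjusted p = 0.0251). Of 11 genes for export and further breakdown of conjugates 1 fell. It was Acy3, an aminoacylase that acts on mercapturic acids (-0.49 ± 0.12, SE; limma adjusted p = 0.0468), whose call ended without any 1 array other than PR+/- replicate 4, at adjusted p up to 0.124. Acy1, a related aminoacylase (0.33 ± 0.10), and the exporters Abcg2 (0.27 ± 0.09) and Abcc1 (0.26 ± 0.10) did not pass (adjusted p = 0.104, 0.169 and 0.240).

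**Figure D5:**
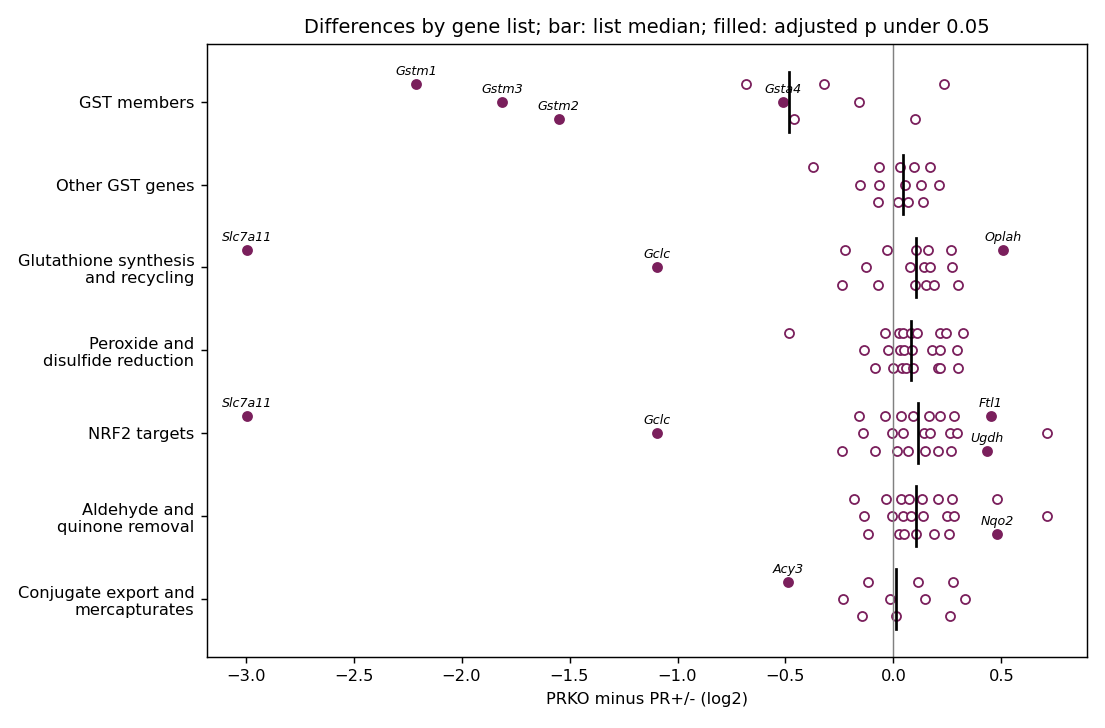
PRKO minus PR+/- log2 difference of each measured gene in 7 lists, with the list median as a bar, filled and named where the adjusted p was under 0.05. The members have a median of -0.49 and the other 6 lists medians of 0.01 to 0.12. Slc7a11 and Gclc appear in 2 lists, as do several genes that did not pass, among them Gclm, Txnrd1, Cbr3 and Abcc1.

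Markers of the cells that a complex can hold or carry along were read on the same arrays. The mean of 11 theca and stroma markers was 5.50 to 5.81 log2 units in PR+/- and 5.63 to 6.14 in PRKO, 0 of the 11 passed in limma, and 5 had an unadjusted p under 0.05. The mean of 8 endothelial markers was 4.87 to 4.96 in PR+/- and 4.99 to 5.17 in PRKO, without overlap, and 1 of the 8 passed. With the theca and stroma mean as a covariate the log2 differences were -1.96 for Gstm1, -1.35 for Gstm2, -1.63 for Gstm3 and -0.46 for Gsta4. The Gsta4 call ended there (limma adjusted p = 0.0625), while the other 3 had adjusted p of 0.00362 to 0.0204. The Gsta4 difference was -0.46 ± 0.10 (SE) in that fit and -0.51 ± 0.08 in the main one. Over all genes, 240 passed with this covariate in place of 582. Gstm6 and Gstm7 went to -0.39 and -0.19 in that fit.

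The mean of 14 oocyte markers was lowest in PR+/- replicate 1 (5.78) and highest in PR+/- replicate 4 (6.56), the arrays with the highest and the lowest PR+/- signal of Gstm1. That low was not particular to oocyte markers. Replicate 1 was also the lowest PR+/- array for cumulus (8.69), theca and stroma (5.50), endothelial (4.87) and surface epithelium means (5.30). It was not the lowest for mural granulosa and luteal, leukocyte or erythrocyte means. A link to Gstm1 was not tested. The oocyte mean spanned 5.82 to 6.36 in PRKO, 0 of the 14 markers passed in limma and 1 had an unadjusted p under 0.05. With the oocyte mean as a covariate the log2 differences were -2.30 for Gstm1, -1.62 for Gstm2, -1.89 for Gstm3 and -0.53 for Gsta4, all 4 past the threshold. The mean of 10 cumulus markers was 8.69 to 9.27 in PR+/- and 8.66 to 9.38 in PRKO, and 0 of the 10 passed in limma, with 2 at an unadjusted p under 0.05. Of 8 measured mural granulosa and luteal markers Fshr fell and Cyp11a1 rose, and the means were 9.35 to 9.83 and 9.28 to 9.51. The mean of 8 leukocyte markers was at most 4.22 in PR+/- and at most 4.29 in PRKO, near the lower quartile of the arrays, with Ptprc at 3.79 and 3.78. The part of cell composition in these differences was not tested beyond these fits.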

How the data were processed

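The authors deposited log2 signals for 35556 probe sets of Affymetrix whole-transcript arrays, hybridised with biotin-labelled cRNA. Partek is named in the submitters' processing notes. Background correction, scaling and summary method were not given in the sources used here. That the base is 2 follows from the range of values (1.19 to 14.08): a natural or decimal log would exceed the 65535 of a 16-bit scanner. Probe sets with several symbols (1621) or none (12146) were left out, and 21789 were tested with no signal filter. No scan dates or batches were used. The few arrays limit precision, and each is a pool of animals, so p-values measure the spread between pools.

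PRKO minus PR+/- differences came from lmFit and eBayes of limma 3.58.1, run in R 4.3.3, with a prior of 6.04 degrees of freedom. Two-sided p-values were Benjamini-Hochberg adjusted over the tested probe sets, and 0.05 was the threshold. The script was tested on simulated data. A gene was counted by its brightest probe set. Members, lists and alternatives were chosen with earlier results of these data known. Named genes were the members, Pgr, up to 6 genes past the threshold and 3 others per list by size of difference, and the 5 profiles nearest to Gstm1; single flanking genes and markers were picked after their values were seen. Alternatives were a replicate block, other normalization, moderation, filter, weights, probe sets and thresholds, marker covariates and each array left out; the other Gstm3 probe set was added after seeing the data. Replicate numbers were not taken as pairs in the main fit, as the labels do not give them as such. Promoters are from RefSeq, aligned with biopython 1.88; tables and plots used Python 3.11.15, pandas 2.3.3 and matplotlib 3.10.9.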

Additional observations from a re-analysis of the deposited data

Results flagged for a closer look

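In a group of 4 arrays 1 array was singled out when its gap to the nearest other, as a share of the group's range, exceeded Dixon's critical value. This was checked in 72 groups of named probe sets, where chance alone gives about 1 in 20, and 6 arrays stood out. Gstm1 in PRKO replicate 1 was at 6.48 log2 units against 6.77 for the nearest PRKO array, a share of 0.910 of the range, and lay on the far side from the PR+/- arrays. Gstm4 in PR+/- replicate 1 was at 6.52 against 5.90 for the nearest, a share of 0.939, and its log2 difference went from -0.32 to -0.16 without that array. The others were Gss in PR+/- replicate 2 (0.883), Aldh9a1 in PR+/- replicate 3 (0.839), Nqo2 in PRKO replicate 4 (0.868) and Abcc1 in PR+/- replicate 4 (0.881).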

How the results depend on the processing

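Over the alternatives, 203 of 208 values for the members kept their direction and their side of the threshold, 4 lost the call, 1 gained it and 0 changed sign. Part of this count was fixed in advance. With the replicate block, other moderation, the signal filter, all probe sets or other thresholds the difference itself stays the same, so its sign could not change. A looser threshold could not lose a call, and members without a call could not lose one. The losses were Gstm2 without moderation, Gstm3 by its other probe set, and Gsta4 with the theca and stroma covariate and with a fold of at least 2. Gstm1 kept its call throughout, at log2 differences of -2.41 to -1.96. Without moderation, where an ordinary t-test was used, its adjusted p reached 0.050, just under the threshold. Gstm3 by its main probe set and Gsta4 had the same adjusted p in that fit, so all member calls there were marginal. With single arrays left out, 4 to 5 members passed, and 3 passed with Gstm3 by its other probe set. Of the members 7 had a probe set at or above the median signal.

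The 582 genes that passed became 106 without moderation, 206 with all probe sets tested, 240 with the theca and stroma covariate, 932 at an adjusted p under 0.1, 87 with a fold of at least 2, and 301 to 532 with single arrays left out (514 after quantile normalization, 308 lower and 206 higher). At an adjusted p under 0.1, 1 flanking gene, 5 synthesis and recycling genes, 1 peroxide gene and 2 aldehyde and quinone genes passed, and 1 peroxide gene passed at or above the median signal (0 to 1 with single arrays left out). The 4 NRF2 targets became 2 without moderation, with all probe sets, with the theca and stroma covariate and with a fold of at least 2 (2 to 4 with single arrays left out). Under the same 4 settings the 1 aldehyde and quinone gene and the 1 export gene became 0, as the former also did after quantile normalization, and each list gave 0 to 1 with single arrays left out. The Pgr log2 difference of -1.09 lost its call with an intensity trend, without moderation and with all probe sets (adjusted p 0.0753, 0.247 and 0.143) and at -1.36 with the theca and stroma covariate (0.0610), and ran from -1.32 to -0.90 with single arrays left out. Their causes were not tested.

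The replicate numbers were checked for pairing. Deviations of same-numbered arrays from their genotype means correlated at 0.121, 0.080, 0.145 and 0.153, all positive. Those of different-numbered arrays were mostly negative. Deviations cancel within a genotype, so with positive same-numbered values the different-numbered ones must be negative on balance. Their sign is therefore no separate observation. The different-numbered correlations ran from -0.211 for PR+/- replicate 3 with PRKO replicate 4 to 0.216 for PR+/- replicate 2 with PRKO replicate 4. Whether equal numbers mark a shared batch was not tested, and the labels do not say. With the replicate block 671 genes passed in place of 582 and the same 4 members passed. The aldehyde and quinone genes went from 1 to 2, as Aldh1a1 joined (adjusted p = 0.0251), and the NRF2 targets from 4 to 3, as Ugdh lost its call (0.0669).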
